A study of Homo sapiens with 6 samples.

Results

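The genes described here are 10 regulators and marker genes of germ cells and testis, namely DAZL, BOLL, DDX4, STK31, TEX15, SOHLH1, DMRT1, BRDT, TEX14 and TEX101. They were chosen by symbol, with earlier results of these data known, so counts among them are a description and not a test. Each symbol matched 1 row of the deposited table by Ensembl identifier, and they are 10 of 57820 human genes in it. The RNA comes from HCT116 (WT, 3 samples), a long-established cell line from a human colorectal carcinoma, and from DKO1 (3 samples), a line derived from HCT116 that the submitters describe as lacking DNMT1 and DNMT3B through knockout. Both lines grew in the same serum-containing medium, and no other treatment is given in the labels. DNMT1 copies DNA methylation onto the new strand when DNA is replicated, and DNMT3B methylates unmethylated sites. Every DKO1 sample is of the same derived line, so effects of losing these enzymes and whatever else separates the lines cannot be told apart. Replicates are numbered 1 to 3 in both groups and the labels name no separate cultures, so the spread between samples may be technical.

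Germ cells use a set of genes that other tissues keep silent, often with CpG-rich promoters that are methylated outside the germ line. RNA-binding proteins of the DAZ family (DAZL and BOLL) and the helicase DDX4 act on germ cell messenger RNAs, and transcription factors such as SOHLH1 and DMRT1 direct the development of spermatogonia. Later steps need proteins of the piRNA pathway, which silences transposons, the cytoplasmic bridges that join sister germ cells, and the reorganisation of chromatin in spermatids. The colonic epithelium from which HCT116 derives is not known to use these genes.

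Promoter sequences show how much CpG, the substrate of the enzymes that DKO1 is described as lacking, lies before these genes. Windows of 250 bases before an annotated start were taken from RefSeq (GRCh38.p14) for 8 of the 10 genes, 13 windows in all. TEX14 and TEX15 were not matched. A sequence is shown for DAZL, whose log2 fold change was the highest of the 10, for SOHLH1 and BRDT, which rose and whose windows also lay above the median of CpG, for DMRT1, which was lower in DKO1, and for DDX4, whose window held no CpG. Sequences read 5′ to 3′ on the strand of the gene, and capitals mark CpG dinucleotides.
DAZL, chr3:16605424-16605673, minus strand: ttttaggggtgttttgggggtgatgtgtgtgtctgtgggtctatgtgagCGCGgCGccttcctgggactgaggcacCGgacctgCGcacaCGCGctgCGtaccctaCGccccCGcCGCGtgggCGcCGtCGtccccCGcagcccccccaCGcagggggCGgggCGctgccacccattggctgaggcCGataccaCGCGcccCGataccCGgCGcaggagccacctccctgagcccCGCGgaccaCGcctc
SOHLH1, chr9:135699482-135699731, minus strand: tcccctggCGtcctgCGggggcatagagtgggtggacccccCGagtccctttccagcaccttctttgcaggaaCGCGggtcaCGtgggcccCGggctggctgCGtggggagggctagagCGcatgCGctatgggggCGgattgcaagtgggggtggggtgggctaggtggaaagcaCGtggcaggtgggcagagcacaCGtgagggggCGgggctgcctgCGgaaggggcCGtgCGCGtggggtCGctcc
BRDT, chr1:91949121-91949370, plus strand: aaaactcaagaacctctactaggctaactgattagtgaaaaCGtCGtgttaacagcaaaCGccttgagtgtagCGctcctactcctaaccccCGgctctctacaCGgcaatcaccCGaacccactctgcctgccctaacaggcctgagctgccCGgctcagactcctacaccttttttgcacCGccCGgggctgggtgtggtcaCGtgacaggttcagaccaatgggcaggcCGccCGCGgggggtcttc
DMRT1, chr9:841447-841696, plus strand: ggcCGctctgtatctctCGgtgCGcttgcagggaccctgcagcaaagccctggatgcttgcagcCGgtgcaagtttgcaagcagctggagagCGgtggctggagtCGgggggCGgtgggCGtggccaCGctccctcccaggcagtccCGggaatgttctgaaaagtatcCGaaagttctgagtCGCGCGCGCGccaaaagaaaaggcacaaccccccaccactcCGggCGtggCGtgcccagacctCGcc
DDX4, chr5:55766635-55766884, plus strand: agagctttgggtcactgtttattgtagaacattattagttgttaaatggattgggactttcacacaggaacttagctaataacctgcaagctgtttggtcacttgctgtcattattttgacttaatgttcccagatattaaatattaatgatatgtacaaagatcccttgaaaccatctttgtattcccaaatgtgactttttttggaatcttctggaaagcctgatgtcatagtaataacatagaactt

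The DAZL window held 28 CpG dinucleotides, more than 84.1% of 35116 RefSeq windows of this length. SOHLH1 had 19, BRDT 14 and DMRT1 20 in the windows shown, STK31 had 19, and the BOLL windows held 28 and 22. The median of all windows was 11 (quartiles 3 and 23), and 11 of the 13 windows lay above it, among them both BRDT windows, which largely overlap. The exceptions were the DDX4 window, with 0, and the first of the TEX101 windows, with 2. The start of the DDX4 window lay 28868 bases inside the gene model of GENCODE release 29, where 2 of 14 transcripts start within 100 bases of it, and those of the DAZL windows lay 64883 and 65516 bases inside, with 1 of 3 transcripts near each. The second DMRT1 window and the first windows of TEX101 and BOLL had 0 GENCODE transcripts starting within 100 bases. Which starts these cells use, and the methylation of these promoters, were not analysed here.

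Some letters known from germ cell promoters were also searched for on both strands. The E-box CACGTG, the site of MAX-type and other basic helix-loop-helix factors, occurred 3 times in the SOHLH1 window and once each in those of STK31, in both of BRDT and in the second of DAZL, so 4 of the 8 genes held it against 6.34% of all windows. Both BRDT windows overlap for most of their length, and their match is the same site. The E2F6-type sequence TCCCGC was found in windows of DAZL, STK31, DMRT1 and BOLL, 4 of the 8 genes, against 23.5% of all windows. Both sequences contain a CpG, and 5 of the genes had more than 1 window in which to hold a match. A match describes these letters only.

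**Figure D1:**
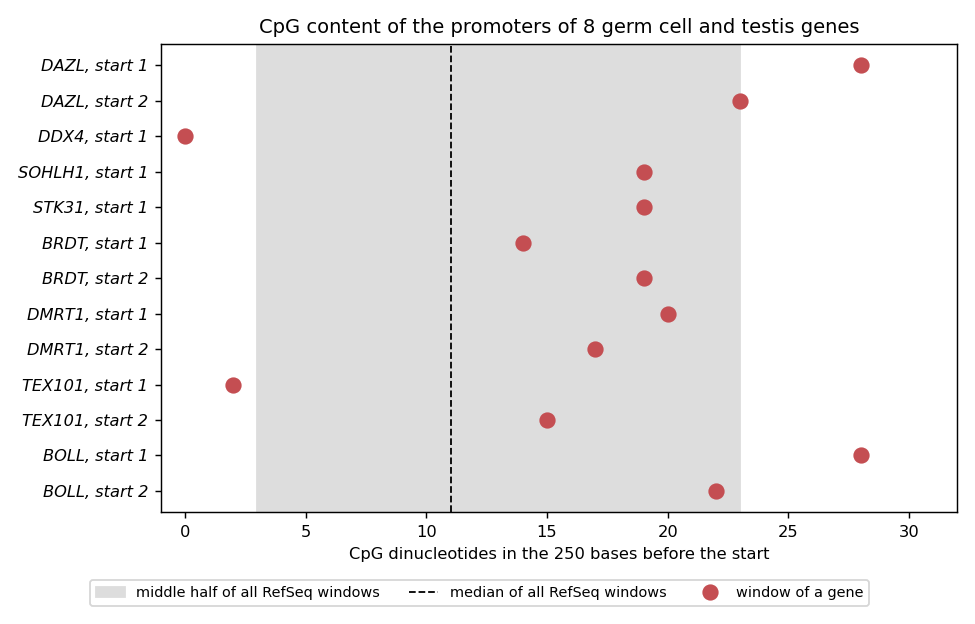
CpG dinucleotides (x axis, count) in the 250 bases before each annotated start of 8 genes (y axis, a row for each start), with a grey band from 3 to 23 and a dashed line at 11 for the quartiles and median of all RefSeq windows. The DDX4 window and the first TEX101 window lie below the band, and the other 11 lie to the right of the dashed line.

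The RNA of DNMT1 and DNMT3B was examined first. DNMT1 was at 244.9, 250 and 231.0 TPM in WT replicates 1 to 3 and at 31.07, 30.81 and 46.82 TPM in DKO1, a log2 fold change of -2.73 (SE 0.17, limma adjusted p = 3.59e-05). DNMT3B was at 8.22, 7.09 and 6.77 TPM in WT and at 4.86, 4.85 and 3.56 TPM in DKO1 (log2 fold change -0.63, SE 0.17, limma adjusted p = 0.0300), a call that was lost without WT replicate 1, 2 or 3 (adjusted p = 0.110, 0.0908 and 0.0778), without DKO1 replicate 1 (0.0535) and with mitochondrial and spike-in rows removed (0.0650). RNA of both genes was thus lower but still present in DKO1, and the enzymes themselves were not measured. TPM is a length-corrected share of transcripts that sums to a fixed total in every library, so it keeps no record of depth, and the depth is unknown. Between 12110 and 12465 human genes reached 1 TPM in the WT samples and between 13327 and 14419 in the DKO1 samples, and mitochondrial transcripts took 19.7% to 20.1% of the TPM in WT and 21.2% to 27.7% in DKO1. In bulk samples, fewer expressing cells and less RNA per cell cannot be told apart, so a low TPM may stand for a few cells or for all.

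Of the 10 genes, 9 were higher in every DKO1 sample than in any WT sample and 1, DMRT1, was lower in every DKO1 sample. Among the 29487 human genes with any value above 0, the groups were apart in the same way for 26.0% (DKO1 higher) and 9.28% (DKO1 lower). In WT, 8 of the 10 stayed below 0.2 TPM in every sample and 4 of these, SOHLH1, TEX15, BOLL and TEX101, were listed at 0 in all 3. TEX14 alone among the 10 reached 1 TPM in WT, in all 3 samples. In DKO1, 6, 5 and 5 of the 10 reached 1 TPM in replicates 1, 2 and 3.

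**Figure D2:**
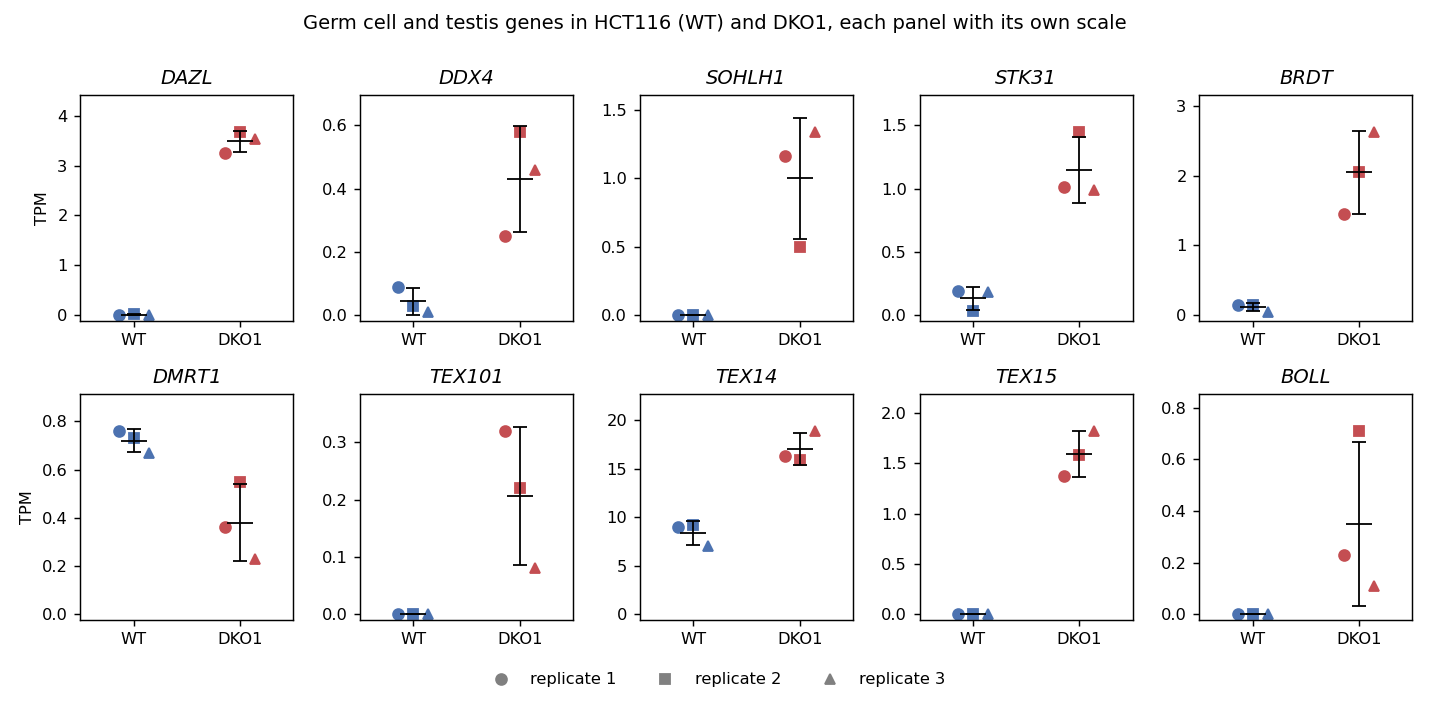
TPM (y axis, linear, a separate scale in each panel) of each gene in the 3 WT and 3 DKO1 samples, with a point per sample, symbols for the replicate number, a bar for the mean and whiskers for the SD. DKO1 points lie above all WT points except for DMRT1, where they lie below, and the panels for SOHLH1, BOLL and TEX101 show the widest relative spread among DKO1 samples together with DDX4 and DMRT1.

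Tests were run with limma on log2(TPM + 1), and fold changes on that scale understate the change of genes with low values. A filter kept genes that reached 1 TPM in 3 or more samples, and it was passed by 4 of the 10 genes, DAZL, BRDT, TEX14 and TEX15, and all 4 were called higher, where 18.8% of 13604 tested genes were called higher and 9.6% lower. DAZL, BRDT and TEX15 passed the filter through their DKO1 values, so this count carries no weight of its own. The other 6 were fitted without a filter, over all 29487 genes with a value above 0, of which 14.9% were called higher and 3.72% lower. In that fit 7 of the 10 genes rose and 0 fell (9 and 1 at an unadjusted p below 0.05), with a median log2 fold change of 0.93 against 0.058 over all genes fitted. A pseudocount of 0.1 raised the log2 fold changes of the low genes, to 5.08 for DAZL, 4.07 for TEX15, 3.36 for SOHLH1, 3.33 for BRDT, 2.49 for STK31 and 1.87 for DDX4, with every one of these calls kept.

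**Figure D3:**
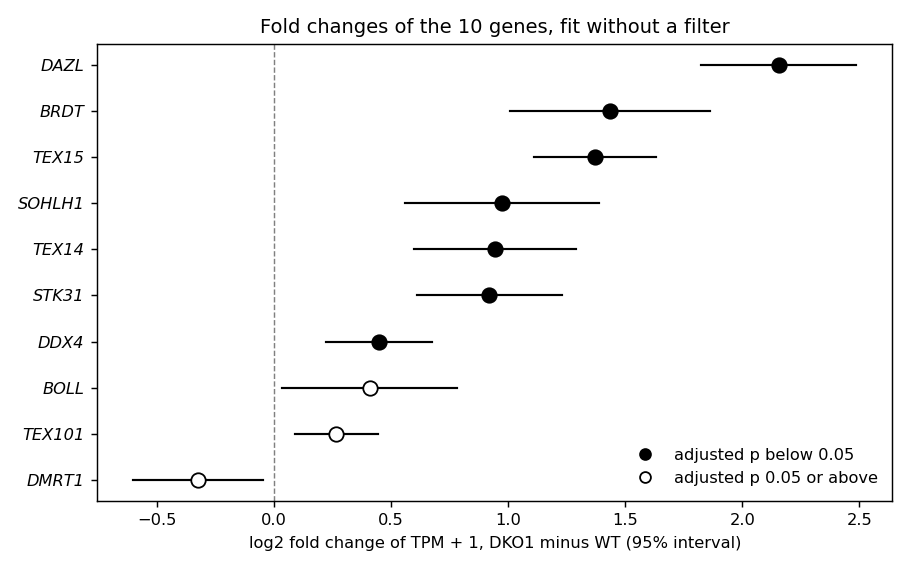
Log2 fold change of TPM + 1, DKO1 minus WT (x axis), of each gene (y axis) in the fit without a filter, with bars for the 95% interval and filled points for an adjusted p below 0.05. The points run from -0.32 (DMRT1) to 2.15 (DAZL), and the open points are BOLL, TEX101 and DMRT1.

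Among the RNA-binding proteins and helicases of germ cells, DAZL rose most. DAZL (ENSG00000092345.9, chromosome 3), a translational regulator needed for germ cells to enter their sexual programme, was listed at 0, 0.02 and 0 TPM in WT replicates 1, 2 and 3 and stood at 3.25, 3.68 and 3.53 TPM in DKO1. The DKO1 values lay close together, with a coefficient of variation of 6.26%, and far from those of WT. Its log2 fold change was 2.15 (SE 0.12, limma adjusted p = 2.64e-05). BOLL (ENSG00000152430.13, chromosome 2), the ancestral relative of DAZL that acts in meiosis, was listed at 0 in all WT samples and at 0.23, 0.71 and 0.11 TPM in DKO1 replicates 1, 2 and 3. All DKO1 samples were above WT but differed several-fold among themselves, and the difference did not pass (log2 fold change 0.41, SE 0.15, limma adjusted p = 0.131 without a filter). It passed without DKO1 replicate 2 (0.0466) and with a pseudocount of 0.1 (0.0363), within a range of 0.0363 to 0.310 over 12 alternatives.

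DDX4 (ENSG00000152670.14, chromosome 5), the VASA helicase found in germ cells across animals, was at 0.09, 0.03 and 0.01 TPM in WT and at 0.25, 0.58 and 0.46 TPM in DKO1. These are low levels in both lines, although the groups did not overlap. The log2 fold change was 0.45 (SE 0.094, limma adjusted p = 0.0219 without a filter), and the call was lost with the replicate block (0.0536), under quantile normalization (0.216), without WT replicate 1, 2 or 3 (0.0707, 0.0956 and 0.106) and without DKO1 replicate 3 (0.0792). The gene model of DDX4 overlaps that of SLC38A9 on the opposite strand, which measured 30.2 ± 1.57 TPM in WT against 27.6 ± 2.45 TPM in DKO1 (SD, n = 3), and whether counting used the strand is not given in the sources used here.

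STK31 and TEX15 belong to the set of proteins around the piRNA pathway. STK31 (ENSG00000196335.8, chromosome 7), a Tudor-domain protein with a kinase-like region, stood in WT at 0.19, 0.03 and 0.18 TPM and in DKO1 at 1.01, 1.45 and 0.99 TPM. Its lowest DKO1 sample was well above its highest WT sample, and it rose by 0.92 on the log2 scale (SE 0.13, limma adjusted p = 0.00487 without a filter), with the call lost under quantile normalization (0.0721). TEX15 (ENSG00000133863.2, chromosome 8), needed in male germ cells to silence transposons and repair meiotic breaks, was listed at 0 in every WT sample and at 1.37, 1.58 and 1.82 TPM in DKO1. The DKO1 samples had a coefficient of variation of 14.2%, and the log2 fold change was 1.37 (SE 0.13, limma adjusted p = 0.000209). Under quantile normalization it was 0.75 with the call kept (0.0121), and over all 13 alternatives the adjusted p ran from 2.58e-05 to 0.0121.

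Of the transcription factors of spermatogonia, SOHLH1 rose and DMRT1 did not pass the test. SOHLH1 (ENSG00000165643.6, chromosome 9), a basic helix-loop-helix factor of early spermatogonia and oocytes, was listed at 0 in all WT samples and stood at 1.16, 0.50 and 1.34 TPM in DKO1. DKO1 replicate 2 was lower than the other two, and the log2 fold change of 0.97 (SE 0.17, limma adjusted p = 0.0120 without a filter) lost its call without WT replicate 1, 2 or 3 (0.0644, 0.0644 and 0.0723) and without DKO1 replicate 1 (0.0616). DMRT1 (ENSG00000137090.7, chromosome 9), which maintains male identity in the testis and holds back meiosis in spermatogonia, was at 0.76, 0.73 and 0.67 TPM in WT and at 0.36, 0.55 and 0.23 TPM in DKO1. Every DKO1 sample was below every WT sample, yet the log2 fold change of -0.32 (95% interval -0.60 to -0.046) did not pass (limma adjusted p = 0.109 without a filter). It passed under quantile normalization (0.0233) and without DKO1 replicate 2 (0.0314), in a range of 0.0233 to 0.232 over 12 alternatives. The DMRT1 window shown above held more CpG dinucleotides than the median, as did those of DAZL and SOHLH1.

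Of the genes of later germ cell steps and of the germ cell surface, BRDT and TEX14 rose and TEX101 did not pass the test. BRDT (ENSG00000137948.14, chromosome 1), the testis member of the BET family that reads acetylated histones in spermatocytes and spermatids, measured 0.15, 0.14 and 0.05 TPM in WT against 1.45, 2.06 and 2.63 TPM in DKO1. The groups were far apart, and the log2 fold change was 1.44 (SE 0.17, limma adjusted p = 0.000722), or 0.75 under quantile normalization with the call kept (0.0214, the highest over 13 alternatives, the lowest being 0.000246). TEX14 (ENSG00000121101.11, chromosome 17), which keeps the bridges between sister germ cells open, was at 9.0, 9.22 and 6.98 TPM in WT and at 16.31, 15.86 and 18.87 TPM in DKO1. It was thus expressed in both lines and 2.02-fold higher in DKO1 (log2 fold change 0.94, SE 0.16, limma adjusted p = 0.00417), with the call kept in all 14 alternatives. Its gene model overlaps several short RNA genes, IGBP1C on the same strand and SEPTIN4-AS1 on the opposite strand. IGBP1C stayed below 1 TPM and SEPTIN4-AS1 below 0.8 TPM in every sample. Of the short RNA genes, RNU1-108P was listed at 0 in WT and at 2.18, 0 and 2.20 TPM in DKO1. RNVU1-34 was at 0, 3.04 and 2.23 TPM in WT and at 0 in DKO1, and U3 reached at most 2.06 TPM. None of these passed (limma adjusted p = 0.156, 0.160 and 0.874 without a filter). TEX101 (ENSG00000131126.14, chromosome 19), a germ cell surface protein of the LY6 and uPAR family, was listed at 0 in WT and at 0.32, 0.22 and 0.08 TPM in DKO1, a log2 fold change of 0.27 (SE 0.073) that did not pass (limma adjusted p = 0.0530 without a filter). It passed without DKO1 replicate 3 (0.0103), with a pseudocount of 0.1 (0.0215) and with mitochondrial and spike-in rows removed (0.0494), in a range of 0.0103 to 0.171 over 12 alternatives.

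The levels reached in DKO1 were low for most of these genes. In order of mean TPM in DKO1 they were TEX14 (17.0), DAZL (3.49), BRDT (2.05), TEX15 (1.59), STK31 (1.15), SOHLH1 (1.00), DDX4 (0.43), DMRT1 (0.38), BOLL (0.35) and TEX101 (0.21). Only TEX14 stood apart from DAZL, and DAZL from BRDT, since the ranges of all later neighbours in this order overlapped. TEX14 lay above 56.8% of the 13604 tested genes by mean TPM in DKO1, DAZL above 24.3% and BRDT above 13.4%, and the median of the tested genes was 12.2 TPM.

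Relatives and partners of these genes took different courses. SOHLH2, the partner with which SOHLH1 pairs, rose from 0.12, 0.24 and 0.30 TPM in WT to 94.78, 100.9 and 102.5 TPM in DKO1 (log2 fold change 6.36, SE 0.14, limma adjusted p = 1.64e-06), while SOHLH1 reached a mean of 1.00 TPM. LY6K, a LY6 family protein that binds TEX101, rose 19.3-fold, from 1.51, 1.15 and 1.17 TPM in WT to 26.70, 19.19 and 27.97 TPM in DKO1. DMRTB1, a relative of DMRT1 that controls the entry of spermatogonia into meiosis, was listed at 0 in all WT samples and at 8.91, 7.01 and 4.28 TPM in DKO1, a rise of 2.90 on the log2 scale (SE 0.23, limma adjusted p = 0.00011), whereas the DMRT1 values were lower there than in WT. DMRT3, which lies next to DMRT1 on chromosome 9, was listed at 0 in WT and at no more than 0.03 TPM in DKO1.

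Among relatives used in many tissues, DDX3X was at 247.7, 261.2 and 265.1 TPM in WT and at 109.8, 140.8 and 205.1 TPM in DKO1, a fall of 1.70-fold (limma adjusted p = 0.0274). That call was lost with no filter (0.0541), without WT replicate 1, 2 or 3 (0.0751, 0.0807 and 0.0958) and without DKO1 replicate 1 or 2 (0.0568 and 0.0565). BRD2 and BRD3, relatives of BRDT, did not pass, with log2 fold changes of 0.03 and 0.14. Of the 12 relatives in the table, 6 passed the filter, of which LY6K and DMRTB1 rose and DDX3X fell, where 18.8% of tested genes rose and 9.6% fell. DMRTB1 passed the filter through its DKO1 values alone. Without the filter 3 of the 12 rose and 0 fell, where 14.9% of all genes rose and 3.72% fell.

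**Figure D4:**
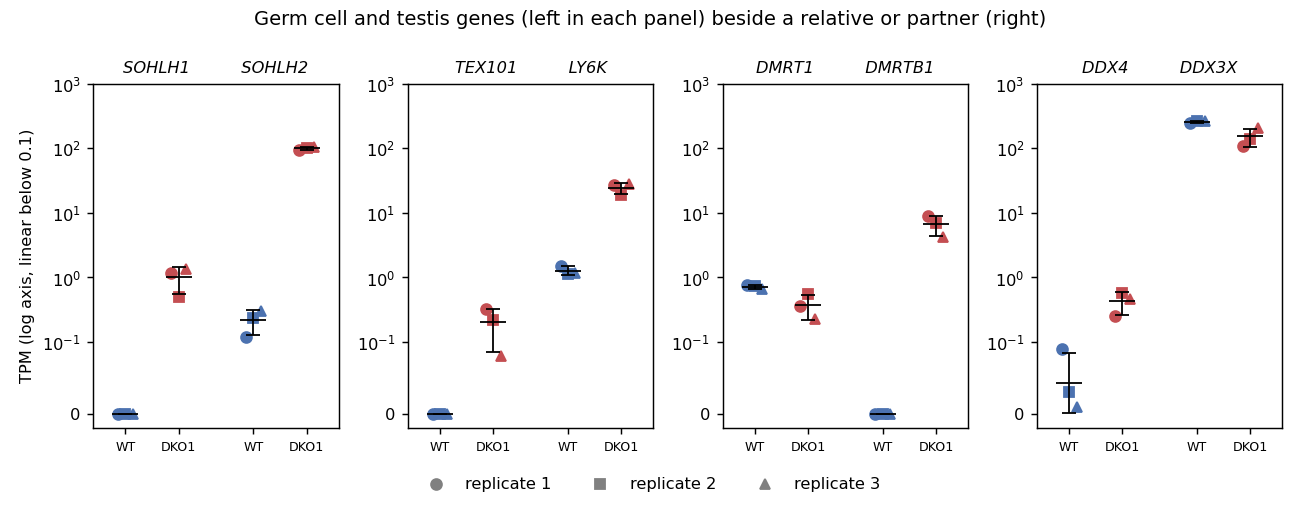
TPM (y axis, log scale above 0.1 and linear below) of 4 of the genes (left in each panel) and of a relative or partner (right), with a point per sample, a bar for the mean and whiskers for the SD of 3 WT (blue) and 3 DKO1 (red) samples. SOHLH2, LY6K and DMRTB1 rise well above SOHLH1, TEX101 and DMRT1 in DKO1, and DDX3X stays far above DDX4 in both lines.

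Other genes of the germ cell programme were taken from lists by function. Low genes are kept out by the filter unless DKO1 raises them, so lists of mostly silent genes are described by the fit without it, where 14.9% of all genes rose and 3.72% fell. Of 18 piRNA pathway genes, 11 rose and 0 fell in that fit (15 and 1 at an unadjusted p below 0.05 in limma), with a median log2 fold change of 0.65 against 0.058 over all genes. The count was 8 to 11 with a sample left out and 8 under quantile normalization. With the filter 10 remained, of which 4 reached 1 TPM in every WT sample, and 8 of them were called higher. TDRD12 reached 48.8 ± 7.0 TPM, MAEL 33.8 ± 10.3 TPM and HENMT1, which methylates piRNA ends, 9.26 ± 1.76 TPM in DKO1 (SD, n = 3), each from a WT mean below 0.5 TPM. Of 26 meiosis genes, 25 were fitted without the filter. Among them 14 rose and 0 fell (17 and 1 at an unadjusted p below 0.05 in limma), with a median log2 fold change of 0.48. The count was 10 to 12 with a sample left out and 8 under quantile normalization. The 5 genes called higher with the filter, named next, all needed their DKO1 values to pass it. MEIOB, a DNA-binding protein of meiotic recombination, rose 11.8-fold to 12.9 ± 3.82 TPM, and the cohesin subunit REC8 rose 6.62-fold to 4.39 ± 0.79 TPM. SYCE1, of the synaptonemal complex, and RNF212, of crossover control, were listed at 0 in WT and reached 3.66 ± 1.22 and 2.73 ± 0.78 TPM. STAG3, another meiotic cohesin subunit, rose from 0.38 ± 0.22 to 2.97 ± 2.02 TPM (limma adjusted p = 0.0201), a call lost without WT replicate 1 or 3 (0.0741 and 0.0737), without DKO1 replicate 1 (0.0586) and under quantile normalization (0.0655). The STAG3 call was also lost in the fit with no filter and the replicate block (0.0746, against 0.0484 with no filter alone). In both lists 1 gene was called lower without DKO1 replicate 3, and with the replicate block and the filter 1 piRNA pathway gene was.

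Regulators of germ cell RNA and transcription were mixed. Of 13 RNA regulators, 12 were fitted without the filter, and 5 rose and 1 fell, where 14.9% of all genes rose and 3.72% fell. Of the 8 that passed the filter, 3 rose and 1 fell, where 18.8% of tested genes rose and 9.6% fell. Among these risers, MEIOC and ELAVL2 passed the filter through their DKO1 values alone. MEIOC, which partners YTHDC2 to stabilise the meiotic programme, rose from at most 0.04 TPM in WT to 7.74 ± 1.19 TPM, and ELAVL2 from a listed 0 to 2.54 ± 0.21 TPM. NANOS1 rose 1.92-fold (limma adjusted p = 0.0301) but lost the call in 6 of 14 alternatives, among them without WT replicate 1, 2 or 3 and without DKO1 replicate 1 (adjusted p from 0.0669 to 0.106). PUM2, an RNA-binding partner of DAZL and NANOS proteins, fell 1.51-fold, from 87.5 ± 2.97 to 58.1 ± 6.37 TPM (limma adjusted p = 0.00954), with the call lost without WT replicate 2 (0.0525). Without DKO1 replicate 3, or with the replicate block, 2 genes of this list were called lower with the filter, and without any 1 WT sample or DKO1 replicate 1 the higher count with no filter was 3. Of 20 germ cell transcription factors and receptors, 17 were fitted without the filter, and 8 rose and 1 fell. The filter was passed by 4, with SOHLH2 among them through its DKO1 values alone. SOHLH2 and TFAP2C rose, TFAP2C 2.85-fold to 4.69 ± 0.75 TPM, and TAF4B fell 1.65-fold to 17.2 ± 3.78 TPM (limma adjusted p = 0.0180), a call lost without WT replicate 1, 2 or 3 (0.0719, 0.0687 and 0.0614) and without DKO1 replicate 1 (0.0520), and in the fit with no filter and the replicate block (0.0526). NOBOX, PRDM14 and ZBTB16 were listed at 0 in all 6 samples.

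Genes of the last steps of sperm formation were mostly low. Of 24 spermatid genes, 21 stayed below 1 TPM in every sample and 8 were listed at 0 in all 6, among them the protamine genes PRM1 and PRM2 and the transition protein genes TNP1 and TNP2, which replace histones in sperm chromatin. Of the 2 that passed the filter, CABYR, a calcium-binding protein of the sperm tail, rose from 0.07 ± 0.07 to 5.62 ± 1.61 TPM (limma adjusted p = 7.58e-05), and ODF2 was not called. CABYR passed the filter through its DKO1 values alone. Without the filter ACRV1, of the acrosome, and CRISP2, a cysteine-rich secretory protein of sperm, also rose, ACRV1 from 0, 0 and 0.11 TPM in WT to 0.83, 0.82 and 1.10 TPM in DKO1 (limma adjusted p = 0.00191) and CRISP2 from a listed 0 to 0.43, 0.48 and 0.59 TPM (0.00133). With CABYR, 3 of the 16 genes of this list that were fitted rose, near the 14.9% over all genes fitted. Of 29 other genes with a TEX symbol in the table, 7 passed the filter, 0 rose and 0 fell in limma (0 and 0 at an unadjusted p below 0.05). Without DKO1 replicate 3, 1 of them was called lower. With no filter 6 of the 23 fitted rose, each of them below 1 TPM in every sample, where 14.9% of all genes rose. The count was 2, 1 and 1 without WT replicate 1, 2 and 3, and 4, 4 and 3 without DKO1 replicate 1, 2 and 3. It was 3 with the replicate block or no variance trend, and 0 under quantile normalization.

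**Figure D5:**
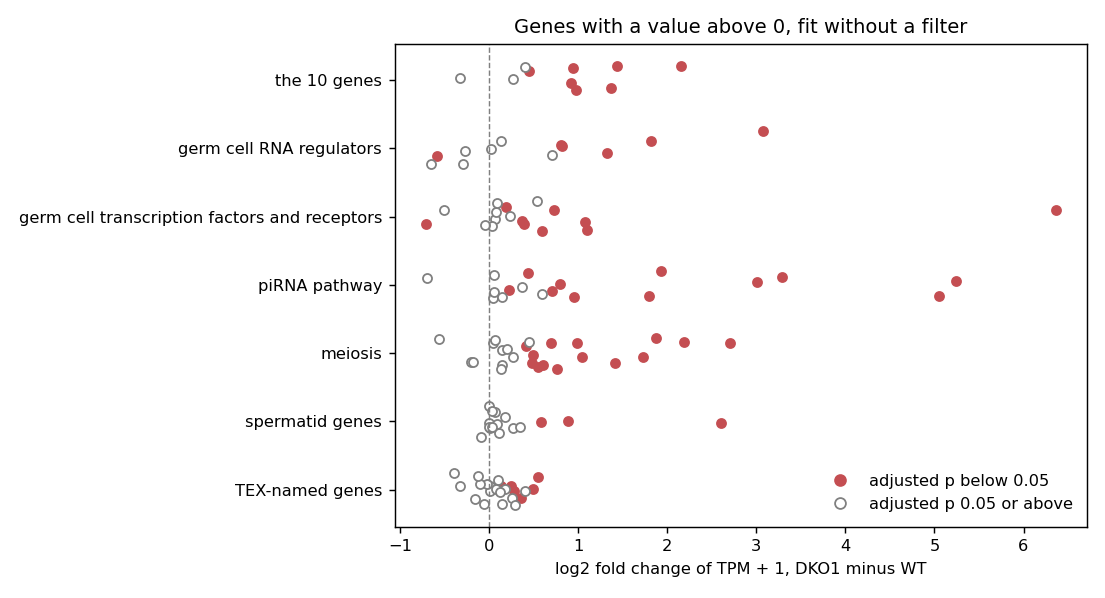
Log2 fold change of TPM + 1, DKO1 minus WT (x axis), of the 10 genes and of the genes of 6 lists (y axis, points spread at random within a row), for genes with a value above 0 in the fit without a filter. Red points have an adjusted p below 0.05, and they reach beyond 2 in each row but that of the TEX-named genes, where the points stay between -0.39 and 0.54.

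Genes whose proteins act with TEX14 in dividing cells, or are known to repress germ cell genes, were mostly transcribed in both lines. Of 7 genes of the midbody and the germ cell bridge, 6 passed the filter. RACGAP1 and TSG101 rose (1.40-fold and 1.61-fold) and 0 fell (1 at an unadjusted p below 0.05 in limma), where 18.8% of tested genes rose and 9.6% fell. The bridge partner of TEX14, CEP55, measured 119.5, 146.1 and 135.1 TPM in WT against 93.92, 131.4 and 176.8 TPM in DKO1. Both rises lost the call without some WT samples (RACGAP1 without replicate 2 or 3, at 0.0698 and 0.0709, and TSG101 without replicate 1 or 3, at 0.0556 and 0.0714), and the list count fell to between 0 and 1 without WT replicate 1, 2 or 3. Without DKO1 replicate 3, 2 genes of this list were called lower, and with the replicate block 1 was, ECT2 (adjusted p = 0.0378, against 0.0781). RBM44 stayed below 1 TPM in every sample. Of 14 genes of the E2F6 and Polycomb complex that represses germ cell promoters, all passed the filter, 0 rose (0 at an unadjusted p below 0.05 in limma) and 2 fell. The count of 2 is near the 9.6% of all tested genes that fell, where 18.8% rose. CBX3, a heterochromatin protein, fell 1.80-fold to 427.2 ± 124 TPM and PCGF6 1.55-fold to 50.3 ± 9.96 TPM (limma adjusted p = 0.0181 and 0.0234). The CBX3 call was lost without WT replicate 2 or 3 (0.0649 and 0.0699) and that of PCGF6 without WT replicate 1, 2 or 3 (0.0702, 0.0887 and 0.0797), and without DKO1 replicate 3 the list had 4 lower genes against 0 to 1 without WT replicate 1, 2 or 3. E2F6 itself measured 64.20, 65.33 and 70.98 TPM in WT against 61.55, 63.07 and 55.10 TPM in DKO1, a difference short of the threshold (limma adjusted p = 0.331).

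The nearest coding genes on either side were read from GENCODE release 29, whose build differs from that of the submitters, and were chosen by position alone. Of 20 such neighbours, 18 had a value above 0, and of these 7 rose and 0 fell without a filter, where 14.9% of all genes rose. Both neighbours of DAZL rose with it. RFTN1 went from 0.13, 0.32 and 0.26 TPM in WT to 3.27, 3.24 and 2.42 TPM in DKO1 (log2 fold change 1.68, SE 0.15, limma adjusted p = 0.000196), and PLCL2 from 0, 0 and 0.05 TPM to 2.96, 3.08 and 3.03 TPM (log2 fold change 1.99, SE 0.12, limma adjusted p = 3.17e-05). These 3 adjacent genes thus stood at like TPM levels in DKO1, and their DKO1 samples were above all WT samples. RFTN1 and PLCL2, like DAZL, passed the filter through their DKO1 values alone. PLPP1, beside DDX4, rose 2.60-fold to 25.3 ± 3.49 TPM (limma adjusted p = 0.0011), and IL31RA, on the other side of DDX4, reached 0.47 ± 0.16 TPM from 0.033 ± 0.0058 TPM (adjusted p = 0.0112 without a filter). FAM221A beside STK31, PURG beside TEX15 and PLCL1 beside BOLL were the other risers, all from WT means below 0.2 TPM. The neighbours of SOHLH1, LCN9 and KCNT1, were at 0.01 TPM or below in every sample.

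Markers of other cell types were examined beside these results. The epithelial marker EPCAM stood at 457.3, 536.4 and 470.5 TPM in WT samples and at 371.3, 500.4 and 494.7 TPM in those of DKO1. Of 12 epithelial markers, 9 reached 1 TPM in every WT sample, while CLDN3 and CDX1 were listed at 0 in WT. Of the 9 that passed the filter 2 rose and 1 fell, near the shares of 18.8% and 9.6% over all tested genes. CDH1 rose 3.30-fold and CLDN4 2.33-fold, and CDX2 fell 2.03-fold (limma adjusted p = 0.0260), a call lost without WT replicate 1, 2 or 3 (0.0953, 0.0789 and 0.102). Without DKO1 replicate 2 the list had 4 higher genes, and without DKO1 replicate 3 it had 2 lower. The keratin gene KRT8 measured 488.4, 332.9 and 325.8 TPM in WT against 255.9, 142.3 and 258.2 TPM in DKO1, short of the threshold (limma adjusted p = 0.0543), but with the replicate block it and KRT18 were called lower (0.0110 and 0.0470), 3 of the list in all. The CDX2 call was lost with no filter and the block together (0.0924).

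Of 12 Sertoli cell markers, 4 passed the filter and SOX9 and INHBB rose, SOX9 from 9.94 ± 2.18 to 42.8 ± 10.9 TPM. The summed level of the list was 20.0 to 26.7 TPM in WT and 44.4 to 66.6 TPM in DKO1. INHBB passed the filter through its DKO1 values alone. INHBB lost the call under quantile normalization (log2 fold change 0.49, adjusted p = 0.142). Without the filter 5 of the 11 fitted rose and 0 fell, where 14.9% of all genes rose and 3.72% fell. That fit added WT1 (a transcription factor gene, from a mean of 0.057 to 0.68 TPM, limma adjusted p = 0.00259), GATA4 (0.00667) and CLDN11 (0.0340). Among the markers of the list that were not called, FSHR was listed at 0 in every sample and AMH was at no more than 0.10 TPM. None of 9 Leydig cell markers passed the filter, and their summed level was 0.10 to 0.25 TPM in WT and 1.41 to 2.08 TPM in DKO1, with STAR and INSL3 below 0.1 TPM throughout. Without the filter 3 of them rose, NR5A1 from a mean of 0.0067 to 0.80 TPM, CYP11A1 from 0.050 to 0.52 TPM and HSD17B3 from 0.027 to 0.30 TPM (limma adjusted p = 0.00677, 0.0122 and 0.0126), and 1, 2 and 0 without WT replicate 1, 2 and 3. Of 8 blood markers LYZ rose, to 2.37 ± 0.12 TPM, and it alone passed the filter, through its DKO1 values. Without the filter PTPRC also rose, from a listed 0 to a mean of 0.52 TPM (limma adjusted p = 0.00145). HBB and SPI1 were at 0 in every sample (summed level of the list 0.34 to 0.74 TPM in WT against 3.70 to 4.43 TPM in DKO1). None of 8 fibroblast markers passed the filter (summed level 1.18 to 1.86 TPM in WT and 3.53 to 3.93 TPM in DKO1). Without it COL1A2 (to a mean of 1.25 TPM), DCN, PDGFRA and THY1 rose and COL3A1 fell, with 2 higher without WT replicate 1, 2 or 3. COL3A1, at a mean of 0.30 TPM in WT and 0.12 TPM in DKO1, lost its call without WT replicate 1, 2 or 3 and without DKO1 replicate 2. Its call was also lost with the replicate block (limma adjusted p = 0.0725), a pseudocount of 0.1, or mitochondrial and spike-in rows removed. The part of such markers in the results was not tested.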

How the data were processed

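RNA of 3 WT and 3 DKO1 samples was analysed. The authors deposited TPM per gene with 2 decimals. The submitters' processing notes name the builds hg19 and GRCh37, and, with no role or order, RSEM 1.2.21, edgeR 3.12.1, STAR 2.5.3a, Trim Galore 0.4.0 and FastQC. The table held 57897 rows, of which 77 had names in the format of sequin spike-ins and were left out. A symbol was found by Ensembl identifier for 89.9% of the human rows. Depth is unknown, so no counting interval is given.

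limma 3.58.1 in R 4.3.3 was fitted with a variance trend to log2(TPM + 1), with genotype alone in the model and genes that reached 1 TPM in 3 or more samples, two-sided, with Benjamini-Hochberg adjustment over all tested genes, called below 0.05. The method was tested on simulated data. A ratio of TPM is given where both means reached 0.5 TPM. Deviations from the group means correlated at 0.35, 0.572 and 0.267 between same-numbered samples. By the data alone the numbers may thus pair the samples, though the labels do not say what a shared number stands for. The main fit left this pairing out, and a fit with the replicate block was an alternative. Further alternatives were quantile normalization, median-ratio scaling, removal of mitochondrial and spike-in rows, no variance trend, no filter, a minimum mean of 5 TPM, a pseudocount of 0.1 and leaving out each sample. Fits without the filter combined with these, for genes outside it and for counts per list, were added after the data were seen. Promoter windows are those of RefSeq without their 50 bases after the start. The named genes are the 10 genes, DNMT1, DNMT3B, up to 3 called genes of each list with the largest change and all called genes of a direction with 5 or fewer. Genes outside this rule were named after their values were seen. Among them are relatives, neighbours, undetected genes, other list members, and genes called only with no filter or with the replicate block. The 10 genes and the lists were chosen with earlier results of these data known. A comparison of the protein sequences was not made.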

Additional observations from a re-analysis of the deposited data

How the results depend on the processing

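Of the 10 genes, 4 were called higher, except 7 with no filter, 5 with mitochondrial and spike-in rows removed and 1 above a mean of 5 TPM, which only TEX14 reached, and 0 were called lower under these alternatives. DMRT1, which they leave out except with no filter, was called lower with no filter under quantile normalization and without DKO1 replicate 2. With the replicate block and no filter 6 rose, DDX4 being the one lost. With the filter the block changed no call of a gene named by the rule above. Other genes in the text, among them ECT2, KRT8 and KRT18, were then called lower. With no filter the block changed 4 others named by the rule, with STAG3, TAF4B and CDX2 lost and DDX3X gained (0.0475). COL3A1, named outside the rule, lost its call there too (limma adjusted p = 0.0725). With no filter 5 of the 10 genes rose without WT replicate 1, 2 or 3. Over 41 named genes and 545 pairs of gene and alternative, 0 reversed, 50 lost the call and 7 gained it. DAZL, BRDT, TEX14 and TEX15 kept it wherever they were tested. Rounding to 2 decimals and the unknown depth limit the genes below 1 TPM.

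Over all genes, 2558 rose and 1306 fell (66.2% of calls higher). With no filter 4400 rose and 1098 fell, and above a mean of 5 TPM 1145 and 1077. With the replicate block 3053 rose and 1817 fell. Quantile normalization put 48.4% of calls higher, median-ratio scaling 56.4% and removal of mitochondrial and spike-in rows 76.5%, with shifts of -0.14, -0.069 and 0.12 in the median over tested genes. Leaving out a sample gave 1705 (without WT replicate 3) to 2842 higher genes and 524 (without WT replicate 2) to 2079 (without DKO1 replicate 3) lower genes. It also gave 604 and 550 lower genes without WT replicate 1 and 3, and 842 without DKO1 replicate 1. Of 128 germ cell genes in the 6 lists, 39 passed the filter, 19 rose and 2 fell, where 18.8% of tested genes rose and 9.6% fell. Many of the risers passed the filter through their DKO1 values, so this count carries no weight of its own. With no filter 45 rose and 2 fell, where 14.9% of all genes fitted rose and 3.72% fell. Those of the 128 that were listed at 0 in every sample were not fitted. Above a mean of 5 TPM 7 rose, and with mitochondrial and spike-in rows removed 29. The replicate block gave 4 lower, quantile normalization 6 and median-ratio scaling 5. Leaving out a sample gave 15 to 19 higher and 0 (without WT replicate 2) to 6 (without DKO1 replicate 3) lower, with 1 without WT replicate 1, WT replicate 3 or DKO1 replicate 1. The cause of these differences was not tested.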
